A study of Mus musculus with 2 samples.

Results

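Nes, Vim, Fabp7, Prom1, Cdh2, Msi1, Rfx4 and Lrrn1 are genes of neuroepithelial cells and radial progenitors, the dividing cells that line the embryonic neural tube. They were taken by gene symbol from the annotation of the array, and every probe set (a group of short probes read together as a single value) that carries 1 of these 8 symbols was used. This gave 18 of the 45101 probe sets on the array and 8 of the 18201 genes that were named. No probe set with several symbols held a member. The series compares mouse embryo brain at stage E10.5 (midgestation) labelled KO (knockout) with brain labelled WT (wild type), both of strain C57BL/6, with 1 array of total RNA for each group. Which gene was deleted, the embryos' sex and the number pooled in a sample are not in the labels, and the sample titles speak of the embryo where the tissue label says brain. With 1 array per group no difference below has a replicate error and no test between genotypes was possible.

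Neuroepithelial cells span the neural tube wall from the fluid-filled lumen to the outer surface, and they become radial glial progenitors as neurons begin to form. Their shape rests on intermediate filaments, with nestin and vimentin forming a shared network, and on adherens junctions near the lumen that are held by N-cadherin. Prominin-1 sits in membrane protrusions facing the lumen, the fatty acid binding protein Fabp7 (BLBP) marks progenitors on the way to radial glia, and Musashi-1 binds RNA in progenitors and restrains the translation of its targets. Rfx4 is a winged-helix transcription factor gene of the neural tube, and Lrrn1 encodes a transmembrane protein with leucine-rich repeats linked to cell affinity, as described in chick at the midbrain-hindbrain boundary.

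Of the members, Lrrn1 had the largest difference between the arrays, Fabp7 the smallest before further scaling, and probe sets of Nes differed in sign. The sequences before the gene start are shown for these 3 members, whose values frame the results. They are the 250 bases upstream of the start, from RefSeq (GRCm38.p6), in the direction of the gene, and lie on the plus strand at chr6:107529476-107529725, chr10:57784673-57784922 and chr3:87970843-87971092. Capitals mark matches on either strand to CANNTG (E-box, bound by basic helix-loop-helix factors), TGGGAA (core of the site of RBPJ, the Notch effector) or ACAAAG (core of the SOX site).
Lrrn1: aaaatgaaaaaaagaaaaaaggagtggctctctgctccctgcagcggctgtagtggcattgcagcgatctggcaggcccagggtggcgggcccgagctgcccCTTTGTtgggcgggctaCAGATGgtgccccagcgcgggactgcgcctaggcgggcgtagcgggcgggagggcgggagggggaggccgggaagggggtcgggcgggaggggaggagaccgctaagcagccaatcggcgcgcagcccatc
Fabp7: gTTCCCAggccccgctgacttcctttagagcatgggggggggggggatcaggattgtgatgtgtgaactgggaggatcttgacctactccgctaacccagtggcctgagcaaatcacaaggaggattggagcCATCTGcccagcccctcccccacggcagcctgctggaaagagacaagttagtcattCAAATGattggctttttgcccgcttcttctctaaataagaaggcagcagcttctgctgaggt
Nes: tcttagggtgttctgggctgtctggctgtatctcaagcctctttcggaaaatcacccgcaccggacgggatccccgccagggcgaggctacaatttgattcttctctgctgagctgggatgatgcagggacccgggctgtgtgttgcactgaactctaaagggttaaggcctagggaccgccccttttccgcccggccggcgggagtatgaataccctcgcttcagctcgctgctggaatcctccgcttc

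The Lrrn1 stretch held 1 E-box and 1 SOX core match. The Fabp7 stretch held 2 E-boxes and 1 RBPJ core match, and the Nes stretch held none of these. No capital letters belong to more than 1 kind of motif. Among 32851 RefSeq stretches of the same length, 66.2% held an E-box, 21.6% an RBPJ core and 16.5% a SOX core, so each is a common string. GTTGCC, part of the site of RFX factors, occurred in 10.4% of all stretches and TTTGCAT, part of the POU octamer, in 4.12%, and neither was found in the stretches of the 6 members searched. These were Lrrn1, Fabp7, Nes, Vim, Prom1 and Rfx4, and Msi1 and Cdh2 were not searched. The GC content was 68.0% for Lrrn1, 54.8% for Fabp7 and 58.8% for Nes, beside a median of 52.4% over all stretches.

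Of the progenitor structural genes, Lrrn1 differed most between KO and WT, Nes and Vim were lower in KO by less on their brightest probe sets, and the other 5 lay close to 0. Signals are deposited linear intensities, and differences are KO minus WT of log2(signal + 16) after both arrays were brought to the same median. A level filter marks values clearly above the dim range: a probe set passed if its higher array was at or above a signal of 45.0, the median over all genes. Of the 18 member probe sets, 13 passed, and each of the 8 genes had at least 1 that passed. The brightest probe set of a gene stands for it, and by that rule 7 of 8 members were lower in KO and Fabp7 was higher, with a median of -0.065, against 50.3% of all 9101 genes passing the filter lower and a median of -0.00097. All of these probe sets but that of Lrrn1 had mean signals of 391 or more. Among the 3596 passing probe sets of that range, 60.8% were lower, with a median of -0.027. After a loess of the difference on level, Cdh2 (0.00095) was above 0 as well as Fabp7 (0.074). Of the 8 differences, 5 lay within 0.1 log2 units of 0. Only Lrrn1 was lower by 0.3 log2 units (1.23-fold) or more, a size reached in that direction by 3.14% of all passing genes, and no member was higher by as much, against 4.91% (8.05% in either direction). In bulk tissue, fewer cells of a type and less RNA per cell cannot be told apart.

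**Figure D1:**
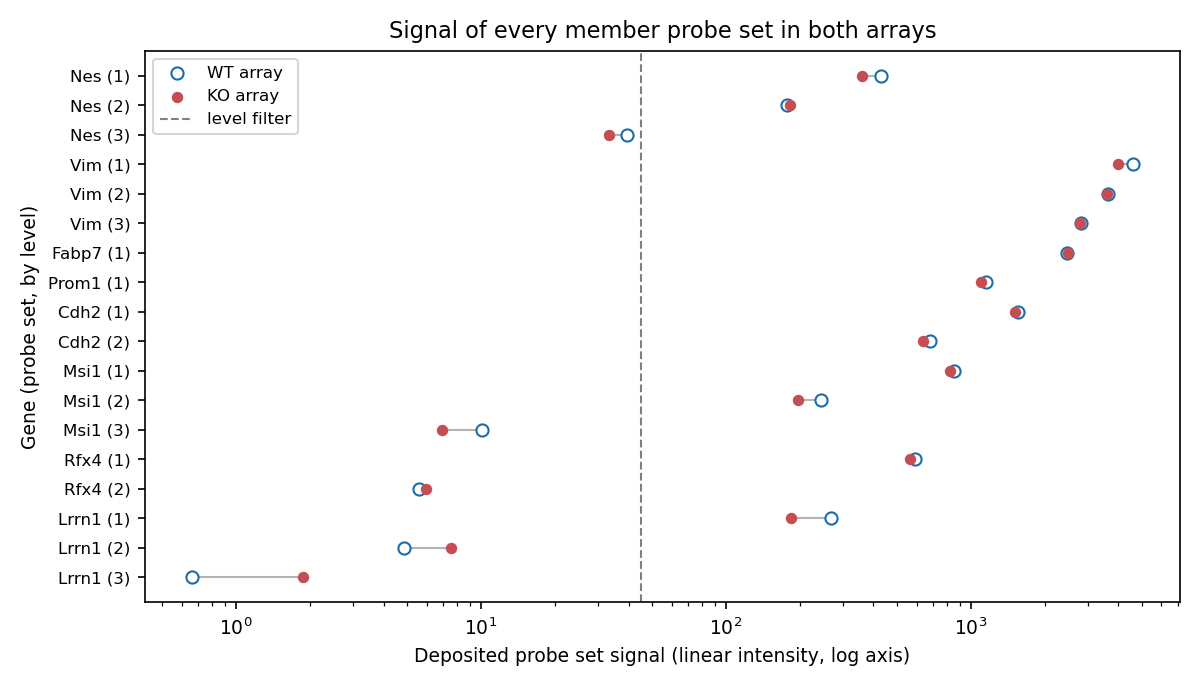
Deposited signal of all 18 member probe sets, with the linear intensity on a log axis and probe sets ordered by level within each gene; open circles are the WT array, filled circles the KO array, and the dashed line is the level filter at a signal of 45.0. The circles nearly coincide for most probe sets right of the line, and Lrrn1 (1), at 185 against 269.7, is the widest gap there.

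The filament genes gave different answers by probe set. Nes, which encodes nestin and lies on chromosome 3 (87971093 to 87980451, GRCm38.p6), has 3 probe sets. The brightest, 1449022_at, read 358.7 in KO and 429.7 in WT, a difference of -0.25. Of the 9101 passing genes, 427 had a lower difference. The robust SD of the difference was 0.10 among passing probe sets with mean signals of 391 to 6259. It was 0.12 among those of 169 to 391, and this probe set lies near the edge between these ranges. The next, 1418289_at, read 182 and 178 (0.027), so the arrays were level there. The third lay below the filter, at 33.3 in KO and 39.4 in WT (-0.17). Nes was thus the only member whose passing probe sets differed in sign, and their mean was -0.11.

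Vim, which encodes vimentin (chromosome 2, 13574311 to 13582826), also has 3 probe sets, and all 3 passed. The brightest, 1450641_at, read 3998 in KO and 4581 in WT (-0.20), and 724 of the passing genes had a lower difference. The other pair, which share a source sequence in the annotation, read 3581 against 3619 (-0.016) and 2786 against 2821 (-0.019). These probe sets lie in the range where the whole array leaned to lower values in KO: of 433 probe sets with a mean signal of 2000 or more, 86.8% were lower, with a median of -0.094 and an interquartile range of -0.14 to -0.047. When that lean was taken out, the brightest Vim probe set differed by -0.048 (quantile normalisation) or -0.11 (a loess of the difference on level). The other pair turned to slightly higher in KO, at 0.11 and 0.062 after quantile normalisation and 0.067 and 0.055 after the loess. No direction for Vim held over its probe sets and these scalings.

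Vimentin is also a filament of mesenchymal, endothelial and blood cells, so their markers belong beside it. Of 12 head mesenchyme markers, 9 read higher in the KO array (median 0.14, summed signal 3033 against 2950), and of the 9 that passed the filter, 7 were higher, with a median of 0.23. The 2 passing markers that were lower were Col3a1, the brightest of the list at 1398 against 1554 (-0.15), and Foxc1 (-0.026). Of 8 endothelial markers, 7 were lower (median -0.061, sum 649 against 695). These 7 ran from -0.00044 (Emcn), where the arrays were level, to -0.23 (Tek), and Pecam1 (-0.17) lay below the filter. Over all 18201 genes, 9157 were higher in KO and 9044 lower. All 8 macrophage markers were lower (median -1.14, sum 159 against 461). Of the 3 that passed the filter, Csf1r (88.1 against 187, -0.96) was above it in both arrays. C1qb (17.7 against 68.4, -1.33) and Mrc1 (2.76 against 57.5, -1.97) passed through the WT array only, so their passing adds no separate support. Of 5 red cell markers, the 3 bright globins were lower (-0.16 to -0.19) and made up most of the summed signal of 13630 against 15306, in the range where the array leaned lower. Alas2, an enzyme gene of haem synthesis, was higher at 122 against 86.6 (0.42), as was Gata1 (0.33) below the filter. Foxc2, a mesenchyme marker, was at or below a signal of 0.52 in both arrays. The part of these cells in the Vim signal was not tested.

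Fabp7 and Prom1 are each measured by 1 probe set, and both were bright. Fabp7 (chromosome 10, 57784923 to 57788450) read 2485 in KO and 2474 in WT, a difference of 0.0052 and the smallest among the members. Against the lean of the brightest probe sets, it became 0.090 after quantile normalisation and 0.074 after the loess. It was then no longer the smallest, but still far from 0.3. Prom1, which encodes prominin-1 (chromosome 5, 43993621 to 44102047), read 1099 in KO and 1149 in WT (-0.064). Among the 9101 passing genes, 2812 had a lower difference than Prom1 and 4723 a lower one than Fabp7, so both lay well inside the bulk of the array.

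**Figure D2:**
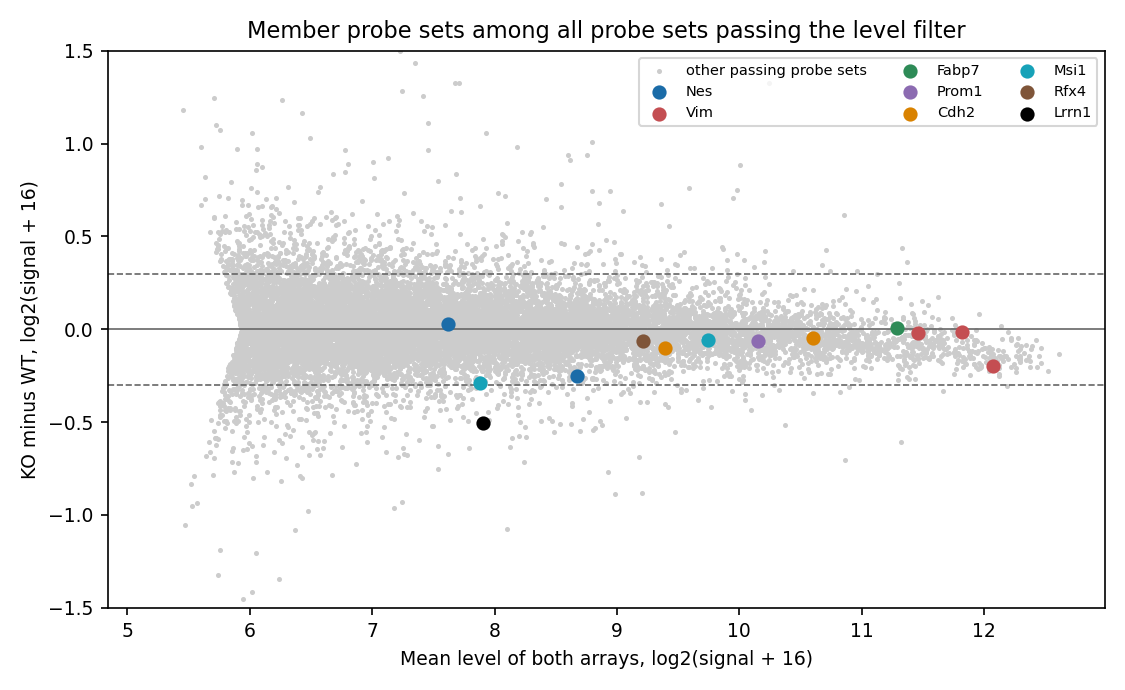
Difference between the arrays (KO minus WT, log2) against the mean level, log2(signal + 16), for all 14385 probe sets passing the level filter (grey; 19 lie beyond the axis limit of 1.5) and the 13 passing member probe sets (coloured by gene); dashed lines mark 0.3 in each direction. The black point, Lrrn1, lies below the line, 1 point each of Msi1 and Nes lies near it, and the grey cloud bends below 0 at its bright end, where Vim and Fabp7 lie.

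The adhesion genes parted. Cdh2, which encodes N-cadherin, the adhesion protein of the junctions near the lumen, read 1511 against 1562 (-0.049) on 1418815_at. Its second probe set read 635 against 681 (-0.10). Both were lower by little, and the first was at -0.0032 after quantile normalisation and 0.00095 after the loess, so its sign depends on the scaling.

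Lrrn1 (chromosome 6, 107529726 to 107570228) was the member with the largest difference. Its bright probe set, 1416053_at, read 185 in KO and 269.7 in WT, a ratio of 0.687 and a difference of -0.51. Of the 9101 passing genes, 75 had a lower difference, and 0.846% were lower by 0.5 or more. Among the 3596 passing probe sets of similar level (mean signals of 169 to 391), the robust SD of the difference was 0.12 and 0.417% were lower by 0.5 or more. The scaling hardly moved the value, at -0.52 after quantile normalisation and -0.51 after the loess. The other pair of Lrrn1 probe sets lay far below the filter, at 7.56 against 4.83 (0.18) and 1.87 against 0.66 (0.10), and were higher in KO. Averaging all 3 probe sets gave -0.076, so the lower value of Lrrn1 rests on 1 probe set.

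The RNA-binding and transcription factor genes stayed near 0 on their brightest probe sets. Msi1, which encodes Musashi-1 (chromosome 5, 115359059 to 115455698), read 824 against 856 (-0.055) on 1452287_at. A dimmer probe set, 1444306_at, read 197 against 244, a difference of -0.29 that falls just short of 0.3. The third was near background at 6.95 against 10.1 (-0.19). All 3 were lower in KO, and the mean of the passing pair was -0.17. Rfx4 (chromosome 10, 84756036 to 84906538) read 563 against 589.7 (-0.065), and its second probe set was near background at 5.93 against 5.58 (0.023).

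Probe sets of 1 gene gave a measure of how far a difference can vary between probe sets on the same arrays. What makes them vary was not tested. Over 3484 genes with at least 2 passing probe sets, the SD between probe sets of a gene was 0.16. The passing pairs of Nes and Msi1 were 0.28 and 0.23 apart, the 3 of Vim 0.18, and the pair of Cdh2 0.051. For genes with 3 passing probe sets the median range was 0.21. The differences of Nes (-0.25) and Vim (-0.20) on their brightest probe sets are thus of the size of the distances among their own probe sets. This spread says nothing about embryos.

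Counted by probe set, 11 of the 13 that passed were lower in KO and 2 higher, against 51.2% lower over all 14385 passing probe sets. Among the 3596 brightest of these, from a mean signal of 391 upwards, 60.8% were lower. After quantile normalisation 9 of the 13 were lower, and after the loess 8. Sizes beyond 0.15 occurred in 4 of the 13, 1 each of Nes, Vim, Msi1 and Lrrn1, all lower in KO, where 14.7% of all passing probe sets were lower by as much. The other 9 included 8 within 0.1 of 0, a band that holds 52.3% of all passing probe sets. The 5 dim probe sets were mixed, with 2 lower and 3 higher.

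**Figure D3:**
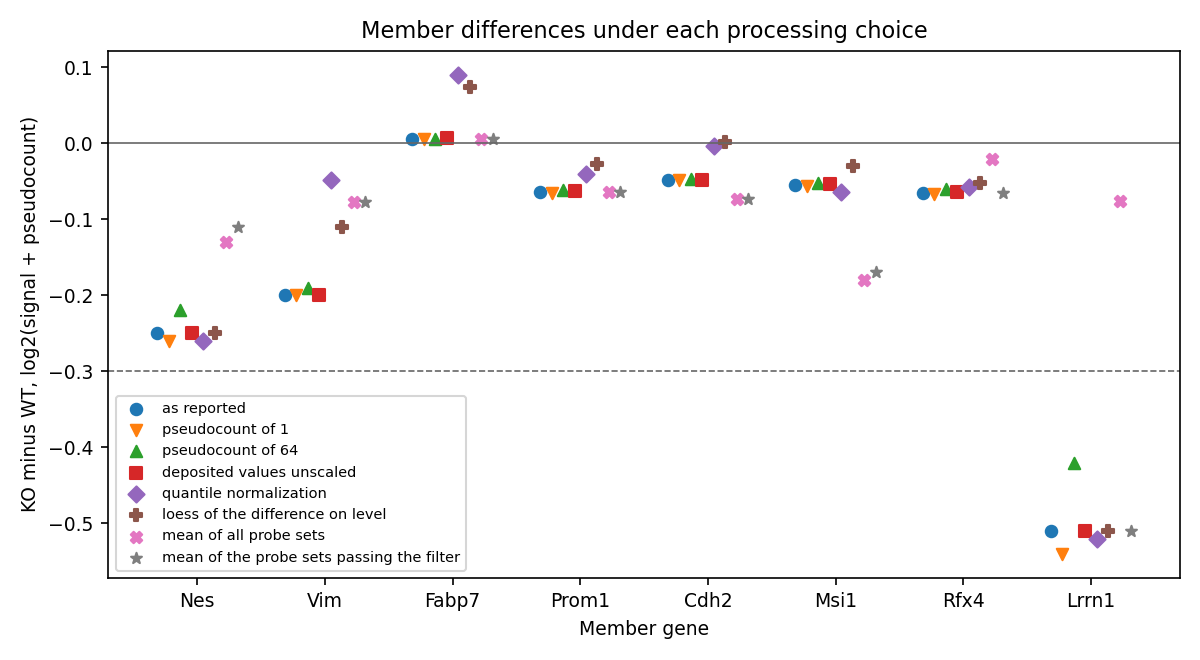
Difference of each member gene (KO minus WT, log2) as reported and under 7 other processing choices, each with its own marker; the dashed line marks -0.3. Lrrn1 stays below the line under all choices except the mean of all probe sets (-0.076), and the other 7 genes stay above it throughout.

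Other genes listed for such progenitors showed no common direction in this bulk tissue, where their signals can also come from other cells. Of 44 listed neuroepithelial and radial progenitor genes, 41 were measured, 18 higher and 23 lower in KO, with a median of -0.015. Of the 38 passing the filter, 2 were higher and 3 lower by 0.3 or more, which is 13.2% beside 8.05% of all passing genes. Ednrb, an endothelin receptor gene, differed by -0.43, Notch1 by -0.39 and Pax6, a transcription factor gene of forebrain and spinal progenitors, by -0.32. On a second passing probe set Notch1 differed by only -0.14 and Pax6 by -0.33. Ednrb had 1 passing probe set, and its dim ones differed by -0.0094 and -0.35. Ddah1, which encodes an enzyme that breaks down methylarginines, was higher by 0.32. Dag1, which encodes dystroglycan, the receptor that ties radial endfeet to the basement membrane, was higher by 0.35. The progenitor identity genes Sox1 (434 against 452), Sox2 (1515 against 1687), Sox3 (334 against 323), Hes1 (110 against 104) and Hes5 (1323 against 1561) were above the filter in both arrays. Hes5 (-0.24), Sox2 (-0.15) and Sox1 (-0.058) were lower, and Hes1 (0.067) and Sox3 (0.043) were higher by less than 0.1. Sox9 (26.4 against 32.2) was below the filter, and Gfap, a filament of later astrocytes, was at 1.92 and 5.86. Of the genes whose products join N-cadherin at the junction or lie beside it, Ctnnb1 (beta-catenin) differed by -0.19, in the bright range that leaned lower, Ctnna1 by -0.16, Ctnna2 by -0.15 and Tjp1 by -0.038. Ctnnd1, which encodes the N-cadherin partner p120-catenin, was higher by 0.17. Of the polarity genes, Pard6b (0.25) and Dlg1 (0.15) were higher and Llgl1 (-0.14) was lower. Prkci (0.081), Pard3 (0.056), Mpp5 (0.018) and Lin7c (-0.083) lay within 0.1 of 0, as did 52.3% of all passing probe sets. Pard6b was dim, at 76.8 against 62.1, in a range where the robust SD of the difference was 0.21.

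The neurons that these progenitors form were represented by 18 early neuron genes, of which 13 were lower in KO and 5 higher, against 50.3% of all passing genes lower, with a median of -0.11 and a summed signal of 7960 against 8739. Of the 17 passing, Dcx (-0.38) and Stmn3 (-0.32) were lower by 0.3 or more, a size that 3.14% of all passing genes reached. The other passing probe set of Dcx read 99.5 against 105 (-0.067), and that of Stmn3 differed by -0.29. Among the 5 higher genes, Isl1 (0.29) and Elavl3 (0.28) fell just short of 0.3, as did Tagln3 (-0.28) on the lower side. The members' median of -0.065 lay between this and the median over all genes, and the difference between these lists was not tested. The arrays also differ in sex-linked genes, with Xist at 2023 in KO and 5.19 in WT and Eif2s3y, Kdm5d and Uty between 0.27 and 2.21 in KO and between 90.9 and 254 in WT. The part of sex, of macrophage RNA and of the number of neurons in the members' values was not tested.

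**Figure D4:**
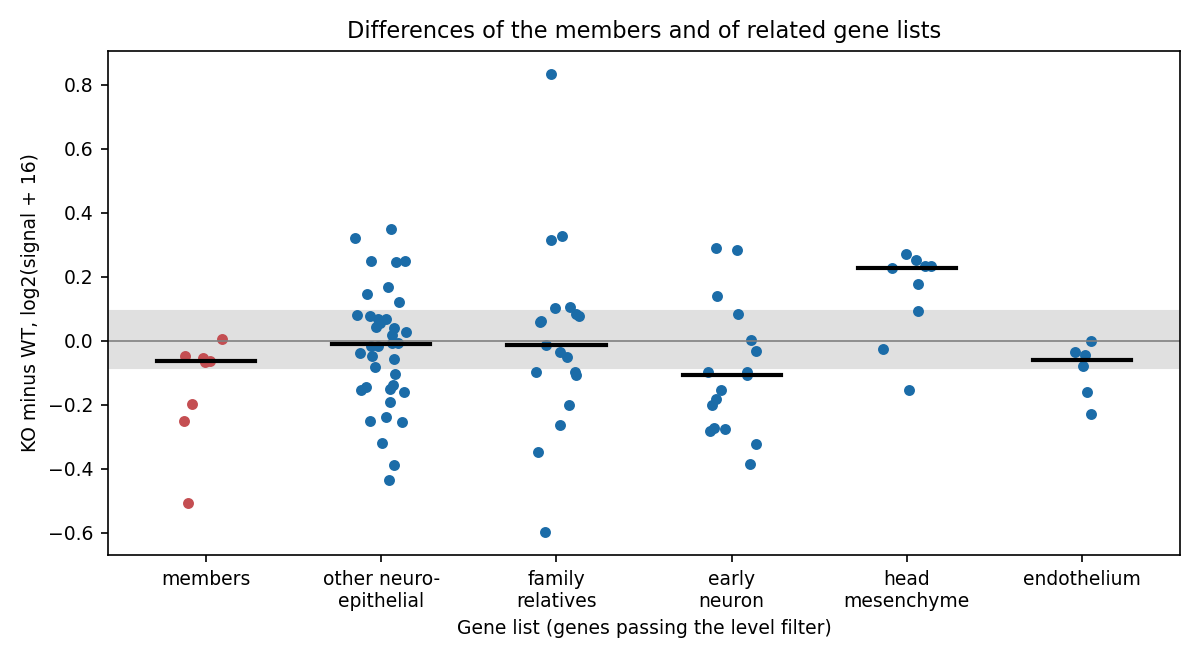
Difference (KO minus WT, log2) of each gene passing the level filter in the 8 members (red) and 5 other lists (blue); black bars are list medians and the grey band is the interquartile range of all 9101 passing genes, -0.086 to 0.092. Of the members, 5 lie inside the band and Lrrn1, Nes and Vim below it, while the head mesenchyme points lie mostly above it.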

How the data were processed

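Total RNA of embryo brain, 1 KO and 1 WT sample, was labelled with biotin and hybridised to Affymetrix arrays, per the labels' protocols. The authors deposited linear probe set intensity values made with Affymetrix Expression Console, per the submitters' processing notes. For the summary algorithm and its version nothing is stated in the labels. The mean without the lowest and highest 2% of values was 100.0 in both arrays, which is a global scaling. The number of arrays limits the precision, and no p-value was computed.

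Both arrays were brought to 1 median and values taken as log2(intensity + 16), which understates changes of dim genes. Of 45101 probe sets, 34957 had 1 symbol, 920 several, 9160 none and 64 were controls. Those without exactly 1 symbol were not assigned to a gene. A gene is represented by its brightest probe set. Named genes are the members, the other neuroepithelial genes and family relatives past 0.3 and, among the relatives, those passing the filter. Other genes in the text, such as cell type markers and the identity and junction genes, were picked with their values in view. The members and lists were chosen with earlier results of these data known. Alternatives covered the pseudocount, scaling, probe set rule, filter and threshold. The calculation was run on simulated data, with known shifts added to shuffled differences of this same pair of arrays. Such a run checks the code and says nothing about variation between embryos. Python 3.11.15, numpy 2.4.6, pandas 2.3.3, statsmodels 0.14.6 and matplotlib 3.10.9 were used.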

Additional observations from a re-analysis of the deposited data

How the results depend on the processing

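No paired analysis was possible because there is only 1 array on each side, which also leaves no replicate to drop. The median over the members was lower in KO under all 8 alternatives (-0.076 to -0.041), as were those of the other neuroepithelial genes (-0.029 to -0.0066) and the early neuron genes (-0.16 to -0.096), while that of the family relatives changed sign (-0.013 to 0.038). A change was called small when it stayed within 0.14, the robust SD over all passing probe sets. The values that moved by more were Lrrn1 with the mean of all probe sets (-0.076), since 2 of its 3 lie below the filter, and Vim after quantile normalisation (-0.048). The number of members lower past the threshold is 1 as reported, 0 when all probe sets of a gene are averaged, 2 at a threshold of 0.2 and 0 at one of 1. Over all genes, 447 were higher and 286 lower at 0.3, which became 195 and 136 at a pseudocount of 64, 1241 and 973 without a filter, 114 and 77 at a threshold of 0.5, 972 and 693 at 0.2, and 20 and 8 at 1. The median of all passing genes was -0.0028 after quantile normalisation and 0.0054 after the loess. Dim probe sets limit what can be said of Lrrn1, Msi1 and Rfx4 beyond their bright ones.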

Other observations

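Relatives of the members in the same protein families went both ways. Of 39 measured relatives, 20 were higher and 19 lower in KO, with a median of 0.024, and of the 19 that passed the level filter 3 were higher and 2 lower by 0.3 or more, where 8.05% of all passing genes were that far apart in either direction. Of the 3 higher relatives 2 were cadherins, as was 1 of the 2 lower. Cdh6, a type II cadherin gene, read 121 against 60.9 (0.83), and its dim second probe set differed by 0.79. Cdh4, which encodes R-cadherin, read 45.4 against 77.0 (-0.60) and differed by -0.46 on its second passing probe set. Cdh11, a cadherin gene of mesenchyme, read 969 against 768 (0.33) but 106 against 115 (-0.11) on its other probe set, while Cdh1 (0.084) and Cdh5 (-0.036) were within 0.1 of 0.

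Among filament and lamina genes, Lmnb1, which encodes lamin B1 of the nuclear envelope, read 921 against 1176 (-0.35) and was also lower on its second probe set, at 376 against 536 (-0.50). Krt8, a keratin gene of simple epithelia, was higher by 0.31 at low signals of 58.3 and 43.7, above the filter in the KO array only. Krt18 (0.10) and Lmnb2 (-0.050) differed by less. The neuronal filament genes Ina (-0.11), Nefl (-0.098) and Nefm (-0.099) were lower by little. Fabp5, the bright relative of Fabp7, read 4665 against 4705 (-0.013), and Msi2, the paralogue of Msi1, was at 0.077. Lrrn3, a relative of Lrrn1 just above the filter in the WT array only, read 38.8 against 49.7 (-0.26). The passing RFX genes were Rfx1 (0.062), Rfx3 (0.060), Rfx5 (-0.20) and Rfx7 (0.11).

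Ddah1 and Dag1 are each measured by several probe sets. All 5 Ddah1 probe sets were higher in KO, the 3 passing ones by 0.32, 0.44 and 0.37. The 4 passing probe sets of Dag1 differed by 0.35, 0.48, 0.26 and 0.013.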
